A study of Glycine max with 20 samples.

Results

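Cutin, waxes and suberin are the lipid barriers of plant surfaces, and 84 of the 55912 primary transcript models of soybean are described here because their best Arabidopsis match names an enzyme of these pathways or of very-long-chain lipid synthesis. A primary model was taken when its Arabidopsis description named a 3-ketoacyl-CoA synthase (KCS, 35 models), a glycerol-3-phosphate acyltransferase (GPAT, 28 models), a cytochrome P450 of family 86 (CYP86, 10 models), a long-chain acyl-CoA synthetase (LACS, 10 models) or a fatty acid reductase (FAR, 1 model). The words eceriferum and male sterility protein 2, which were also searched, were found in 0 primary models. The names below are those of the Arabidopsis match, so several soybean models carry the same name.

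LACS enzymes activate fatty acids to acyl-CoA, and KCS enzymes catalyse the first step of their elongation to very long chains, which feed the waxes. CYP86 enzymes place a hydroxyl group at the far end of the fatty acid, and GPAT enzymes join such acyl groups to glycerol to give the building blocks of cutin and suberin. In plants these polyesters coat the epidermis and lie in the walls of seed coats, where they limit the passage of water. Some members of the same families serve other pathways, such as GPAT9 in membrane and storage lipid synthesis and LACS6 and LACS7 in the peroxisomal breakdown of fatty acids, as known from Arabidopsis.

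The seeds came from greenhouse plants of Glycine max cultivar Williams, and seed coats and cotyledons were dissected apart and frozen. SC25 and SC100 are the seed coats of seeds of 25 to 50 mg and of 100 to 200 mg fresh weight, and C25, C100 and C300 are the cotyledons of seeds of 25 to 50 mg, 100 to 200 mg and 300 to 400 mg. For each tissue and stage the study made libraries of the RNA fragments that ribosomes protected from nuclease (footprint, FP) and of fragmented total RNA (control, CT), with 2 replicates from pools of seeds. The 18 libraries analysed here are 10 CT and 8 FP libraries, since the second FP library of the C100 and C300 stages was not used here, and footprint values at those stages therefore rest on 1 library and have no test. Levels are given as RPKM, the count scaled to the length of the cDNA and to the library total.

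The library totals ranged from 7205928 to 32562521 counts, and 3 counts on a model of 1 kb, taken as the smallest detectable number, equal 0.0921 to 0.416 RPKM, a floor that covers counting error only. The tissue labels were checked with marker genes. The summed CT level of 19 storage protein models was 22.6 to 398 RPKM in seed coats and 4252 to 19023 RPKM in cotyledons. The seed coat peroxidase Ep stood at 54.6 to 185 RPKM in seed coats and 0 to 1.08 RPKM in cotyledons. A longer list of seed coat genes that includes Ep summed to 145 to 238 RPKM in seed coats and 21.5 to 72.5 RPKM in cotyledons. Ep held 146 of 212 RPKM and 185 of 238 RPKM in SC100. The rest of the list did not separate SC100 from C25, where the sums were 55.6 and 72.5 RPKM. Cotyledon CT replicates correlated across 9409 models with r of 0.95 to 0.98, whereas the seed coat CT replicates correlated with r of 0.75 at SC25 and 0.78 at SC100. C25 FP replicate 2 stood apart from its label in part, with 4.71 RPKM of Ep against 0 in replicate 1. The main fits that use it are also given without it. Fits with a replicate block and the medians of the FP to CT ratio at C25 are given only with it.

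The 84 members were mostly low in abundance. In the 10 CT libraries, 7 members had no count, 31, these 7 included, had fewer than 10 counts summed over the libraries and were not tested, and 28 reached a mean of 1 RPKM in at least 1 tissue and stage. Of these 28 members, 10 were KCS, 7 GPAT, 7 CYP86 and 4 LACS. The mean CT level of these 28 members was highest in SC25 for 15, in SC100 for 7 and in C25 for 6, and for 0 of them in C100 or C300. The 28 were selected by the level in their highest group. The same numbers over all models were not computed, so no conclusion is drawn from them. The number of members with a mean of 1 RPKM or more was 24 in SC25 and 18 in SC100, against 12 in C25, 1 in C100 and 1 in C300. Among all primary models, the share at 1 RPKM or more per library was 22.8 to 30.9% in seed coat CT and 12.1 to 28.7% in cotyledon CT. Among the members it was 22.6 to 31.0% in seed coat CT and 0 to 13.1% in cotyledon CT.

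Summed over the 84 members, the CT level was 80.2 and 109 RPKM in SC25 and 95.9 and 92.0 RPKM in SC100, against 22.5 and 29.1 RPKM in C25, 11.5 and 8.19 RPKM in C100 and 12.2 and 8.46 RPKM in C300. The seed coat libraries lay above all the cotyledon libraries. The CYP86 class held the largest part in SC100, with 64.5 and 56.2 RPKM, and 68.2% of its mean came from 1 model, CYP86A7 (Glyma.08G015600.1). The KCS class had 14.9 and 48.9 RPKM in the SC25 replicates. The 1 fatty acid reductase that the search words took was FAR5 (Glyma.08G233200.1), whose Arabidopsis match makes the fatty alcohols of suberin. It had 0 counts in each of the 18 libraries. Another 11 models described as jojoba-type acyl-CoA reductases are not members and are read below with the related genes.

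**Figure D1:**
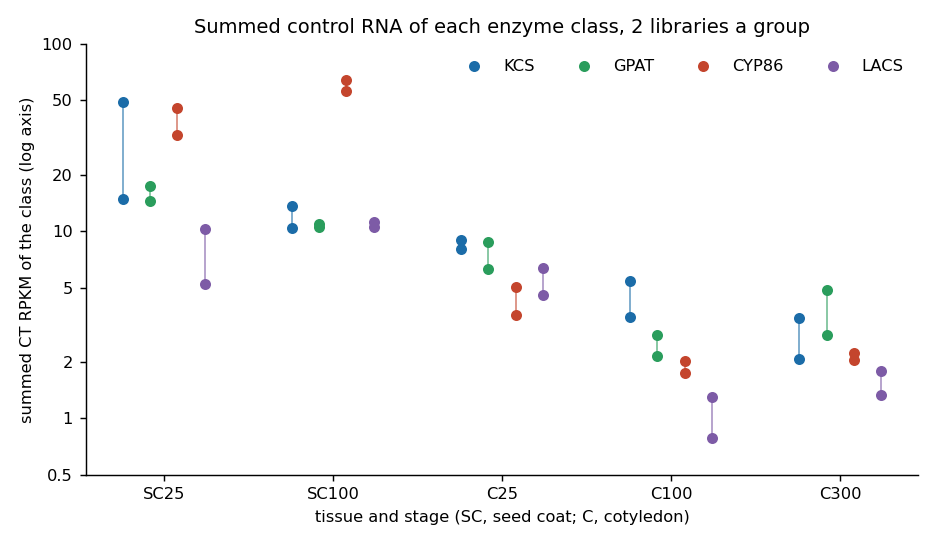
Summed CT RPKM of the KCS, GPAT, CYP86 and LACS members (log axis) in each library, with the 2 replicates of a tissue and stage joined by a line. CYP86 reached 56.2 and 64.5 RPKM in SC100 and stayed between 1.75 and 5.04 RPKM in cotyledons, and the KCS sums of the SC25 replicates lay far apart at 14.9 and 48.9 RPKM.

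To ask which of these enzymes differed between the tissues of young seeds, SC25 was compared with C25 in CT by the quasi-likelihood test of edgeR, with p-values adjusted after Benjamini-Hochberg over 68848 transcript models. Of the 53 members tested, 14 were higher in SC25 at an adjusted p under 0.05, against 6.5% of all models tested, and 1 was lower, against 5.05% of all models. The 14 were 5 KCS, 5 GPAT and 4 CYP86 models, and 0 of the 8 LACS models tested passed (2 higher and 0 lower at an unadjusted p under 0.05). The median log2 fold change was 1.46 over the members tested and -0.18 over all models. Both SC25 libraries were above both C25 libraries for 29 of the 53 members, against 21% of all models, and below them for 10, against 30.3%. DESeq2 called 12 members higher and 1 lower, beside 7.82% and 5.31% of all models, and 11 of its 12 were among the 14. The samples are whole tissues, in which fewer cells of a type and less RNA per cell cannot be told apart.

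CYP86A7 had the highest mean level of the members in SC25, although KCS11 (Glyma.10G179400.1) stood slightly above it in replicate 2. CYP86A7 (Glyma.08G015600.1), a member of the fatty acid hydroxylase subfamily CYP86A, had 19.4 and 15.1 RPKM in SC25, against 0.0717 and 0.292 RPKM in C25 (log2 fold change 6.78 ± 0.67 SE, adjusted p = 4.28e-06 by edgeR). CYP86A8 (Glyma.05G208900.1), named for a hydroxylase that the Arabidopsis epidermis needs to keep organs apart, had 10.4 and 6.0 RPKM in SC25, against 0.0179 and 0.170 RPKM in C25 (log2 fold change 6.76 ± 0.84 SE, adjusted p = 5.46e-05 by edgeR). In both cases every SC25 library lay above every C25 library.

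CYP86B1 (Glyma.09G282700.1), whose Arabidopsis match hydroxylates the very long chains of suberin, had 7.65 and 4.09 RPKM in SC25, against 0.238 and 0.324 RPKM in C25 (log2 fold change 4.60 ± 0.61 SE, adjusted p = 7.02e-05 by edgeR). CYP86A1 (Glyma.14G192500.1), whose match acts in root suberin, had 1.81 and 1.83 RPKM in SC25, against 0.0547 and 0 RPKM in C25, which held 2 counts in all (log2 fold change 5.74 ± 1.15 SE, adjusted p = 0.00359 by edgeR). The ratio of its summed counts was 57.7, with a 95% exact interval of 15.7 to 481 that covers counting error only. Other members of the family did not pass. CYP86A8 (Glyma.03G008100.1) had 2.55 and 2.16 RPKM in SC25 against 1.39 and 1.78 RPKM in C25, and CYP86B1 (Glyma.11G100100.1) had 0 counts in the SC25 libraries against 0.113 and 0.214 RPKM in C25 (adjusted p = 0.389 and 0.0886 by edgeR).

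Among the KCS enzymes the pair KCS11 (Glyma.10G179400.1 and Glyma.20G210900.1) led. Glyma.10G179400.1 had 2.37 and 15.6 RPKM in SC25, against 0.0690 and 0 RPKM in C25, which held 3 counts (ratio of summed counts 133, interval 45.1 to 645, adjusted p = 0.000148 by edgeR). Glyma.20G210900.1 had 0.674 and 9.92 RPKM in SC25, against 0.0460 and 0 RPKM in C25, which held 2 counts (ratio 102, interval 27.9 to 845, adjusted p = 0.00411 by edgeR). The replicates of SC25 differed several-fold for both, but all of them lay above C25.

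The other KCS models higher in SC25 were KCS12, KCS10 and KCS4. KCS12 (Glyma.13G331600.1) had 0.626 and 0.979 RPKM in SC25 and no count in C25, so it was at least 18.3-fold higher when C25 was set to 3 counts over the group. DESeq2 did not call this KCS12 model (adjusted p = 0.327). KCS10 (Glyma.06G058500.1), named for the Arabidopsis gene FIDDLEHEAD whose loss lets epidermal surfaces fuse, had 0.599 and 2.31 RPKM in SC25, against 0.0786 and 0.0356 RPKM in C25. KCS4 (Glyma.14G074300.1) had 3.78 and 1.57 RPKM in SC25, against 0.680 and 0.765 RPKM in C25 (log2 fold change 2.15 ± 0.67 SE, adjusted p = 0.0471 by edgeR). This KCS4 call was lost in 6 of 11 alternatives, with adjusted p of 0.0703 to 0.412, the highest without SC25 CT replicate 1, where the log2 fold change was 0.91.

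The 1 member that was lower in SC25 was KCS6 (Glyma.10G241700.1), whose Arabidopsis match elongates the wax acyl chains of the shoot. It had 0 counts in both SC25 libraries, against 0.223 and 0.496 RPKM in C25, and was at least 12.2-fold lower in SC25 when SC25 was set to 3 counts over the group (adjusted p = 0.0295 by edgeR). It had 0 counts in each of the 8 seed coat libraries and 70 counts over the cotyledon libraries, with at least 1 in each of the 10. KCS6 models Glyma.20G115500.1 and Glyma.20G152500.1 likewise had 0 counts in the 8 seed coat libraries and 21 and 20 counts in cotyledons, with counts in 6 and 8 of the 10 libraries. The level of these 3 models was at most 0.496 RPKM, close to the detection floor, and of the other 3 KCS6 models none had more than 8 counts over the 18 libraries. In the opposite direction, 6 members with at least 10 counts were seen in seed coats and had 0 counts in the 10 cotyledon libraries. Among them were GPAT3 (Glyma.14G167300.1, 269 counts) and KCS12 (Glyma.13G331600.1, 81 counts). With the same minimum, 4 members were seen in cotyledons alone, the 3 KCS6 models above and GPAT6 (Glyma.10G119900.1, 12 counts). The share of all models seen in 1 tissue alone was not computed, so these numbers are not read as a trait of the members.

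The GPAT enzymes higher in SC25 were 2 GPAT8, 2 GPAT3 and 1 GPAT6 model. GPAT8 (Glyma.03G008300.1), an acyltransferase of cutin in Arabidopsis, had 4.43 and 2.56 RPKM in SC25, against 0.391 and 0.460 RPKM in C25 (log2 fold change 3.24 ± 0.71 SE, adjusted p = 0.00574 by edgeR). The second GPAT8 (Glyma.07G069700.1) had 1.81 and 3.98 RPKM in SC25, against 0.346 and 0.627 RPKM in C25 (log2 fold change 2.55 ± 0.64 SE, adjusted p = 0.0147 by edgeR). Both GPAT8 models were higher in each SC25 library than in each C25 library.

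GPAT3 (Glyma.14G167300.1) had 3.70 and 1.03 RPKM in SC25 and no count in C25, at least 62.3-fold higher, with 218 of its counts in replicate 1 and 17 in replicate 2. GPAT3 (Glyma.02G010600.1) had 0.411 and 1.03 RPKM in SC25 and no count in C25, at least 13.5-fold higher. GPAT6 (Glyma.07G146800.1), named for an acyltransferase of flower cutin in Arabidopsis, had 1.12 and 0.507 RPKM in SC25 and no count in C25, at least 21.2-fold higher, with 71 counts in replicate 1 and 9 in replicate 2. DESeq2 called neither this GPAT6 model nor GPAT3 (Glyma.14G167300.1), with adjusted p of 0.319 and 0.215. From replicate 2 alone the bounds were 20.6-fold for GPAT3 (Glyma.14G167300.1) and 10.9-fold for GPAT6, and without SC25 CT replicate 1 neither passed (adjusted p = 0.107 and 0.149 by edgeR). Both GPAT5 models (Glyma.02G249300.1 and Glyma.14G067200.1), whose match makes suberin in Arabidopsis roots and seed coats, had 0 counts in the 10 CT libraries and 1 count each in SC25 FP.

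GPAT9, LACS6 and LACS7, named for enzymes of storage lipid synthesis and fatty acid breakdown, had no model that passed. GPAT9 (Glyma.08G085800.1) had 0.182 and 2.53 RPKM in SC25 against 1.97 and 2.63 RPKM in C25, and LACS7 (Glyma.20G143900.1) had 1.53 and 3.04 RPKM in SC25 against 1.62 and 1.94 RPKM in C25. The groups overlapped in both genes. The cutin-related LACS2 models Glyma.12G047400.1 and Glyma.11G122500.1 were higher in each SC25 library than in each C25 library, at 1.94 and 2.01 RPKM against 0.692 and 0.889 RPKM for the first, but with adjusted p of 0.0858 and 0.149 by edgeR they did not pass.

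SC25 replicate 1 and replicate 2 differed most in some of the elongases. KCS11 (Glyma.06G214800.1) had 0.0135 RPKM in SC25 replicate 1 and 4.59 RPKM in replicate 2, against 0.968 and 1.06 RPKM in C25. KCS11 (Glyma.04G149300.1) had 0.605 and 5.45 RPKM in SC25, against 0.844 and 1.66 RPKM in C25. C25 lay between the SC25 replicates in both, so that their direction depended on the replicate. The same replicates differed in the storage protein sum (398 RPKM in replicate 1 and 22.6 RPKM in replicate 2), and the part of this difference in the levels of the members was not tested.

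Leaving out 1 library moved the number of members called in this comparison. It was 22 higher and 4 lower without SC25 CT replicate 2, where 17% and 9.4% of all models were called. It was 6 and 0 without C25 CT replicate 1 (3.08% and 1.6% of all models), and 5 and 0 without C25 CT replicate 2 (3% and 1.67%). CYP86A7, CYP86A8 (Glyma.05G208900.1), CYP86B1 (Glyma.09G282700.1) and both leading KCS11 models passed under each of the 11 alternatives run for them.

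**Figure D2:**
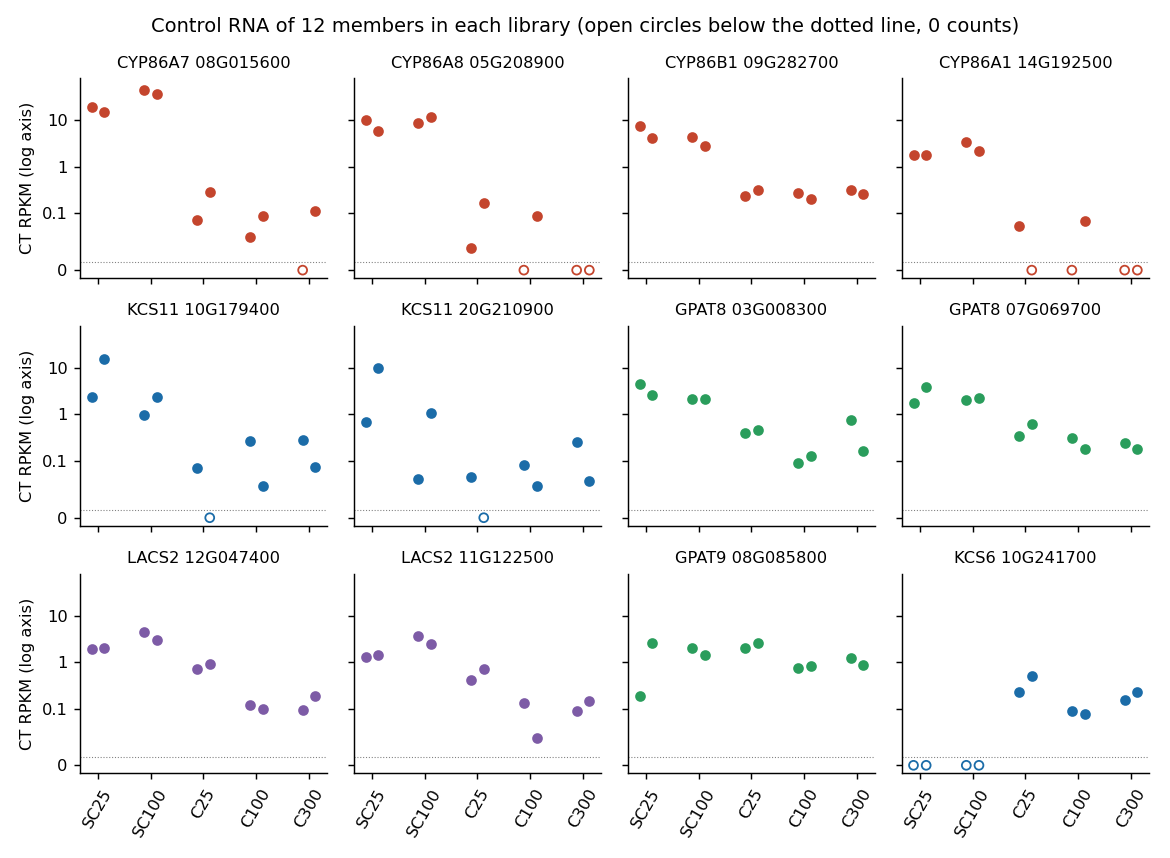
CT RPKM (log axis) of 12 members in the 10 CT libraries, 2 points for each tissue and stage, with libraries of 0 counts drawn as open circles below the dotted line. CYP86A7 stood at 15.1 to 44.8 RPKM in seed coats and at most 0.292 RPKM in cotyledons, GPAT9 (Glyma.08G085800.1) overlapped between the tissues, and KCS6 (Glyma.10G241700.1) had counts in cotyledons alone.

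The same question was asked of the middle stage by comparing SC100 with C100 in CT. Of the 53 members tested, 10 were higher in SC100, against 3.84% of all models, and 1 was lower, against 4.78% of all models. The median log2 fold change was 2.25 over the members and -0.32 over all models, and these medians were 2.98 and 0.52 without TMM scaling, 1.61 and -0.24 by DESeq2, and 0 and -1.18 without SC100 CT replicate 2. The size of the median of the members therefore depends on SC100 CT replicate 2. The median of all models fell as well without that library and stayed below that of the members. Both SC100 libraries were above both C100 libraries for 21 members, against 34% of all models, and below them for 5, against 16.8%. The count of 11 calls fell to 4 higher without C100 CT replicate 1 and to 6 higher without C100 CT replicate 2, where 1.39% and 1.69% of all models were higher.

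CYP86A7 (Glyma.08G015600.1) had 44.8 and 37.5 RPKM in SC100, against 0.0316 and 0.0895 RPKM in C100, which held 3 counts (ratio of summed counts 746, interval 255 to 3623, adjusted p = 3.41e-06 by edgeR). CYP86A8 (Glyma.05G208900.1) had 8.71 and 11.9 RPKM in SC100, against 0 and 0.0893 RPKM in C100 (log2 fold change 7.11 ± 0.91 SE, adjusted p = 9.97e-05 by edgeR). CYP86A1 (Glyma.14G192500.1) had 3.40 and 2.17 RPKM in SC100, against 0 and 0.0682 RPKM in C100 (ratio 100, interval 27.1 to 840). CYP86B1 (Glyma.09G282700.1) was also higher, with 4.33 and 2.86 RPKM in SC100 against 0.273 and 0.208 RPKM in C100.

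LACS2, which in Arabidopsis supplies acyl-CoA for leaf cutin, passed at this stage. Glyma.12G047400.1 had 4.47 and 3.05 RPKM in SC100, against 0.119 and 0.0960 RPKM in C100 (log2 fold change 4.21 ± 0.62 SE, adjusted p = 0.000271 by edgeR), and Glyma.11G122500.1 had 3.72 and 2.47 RPKM in SC100, against 0.129 and 0.0228 RPKM in C100 (log2 fold change 4.39 ± 0.72 SE, adjusted p = 0.000731 by edgeR). In the test of the difference between the stages themselves, the tissue difference of these 2 LACS2 models was larger at the middle stage by 2.78 and 2.98 on the log2 scale, with adjusted p of 0.282 and 0.359, so a difference between stages was not established.

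KCS10 (Glyma.06G058500.1) had 1.42 and 1.80 RPKM in SC100, against 0 and 0.0327 RPKM in C100, which held 1 count (ratio 117, interval 20.3 to 4715, adjusted p = 0.0109 by edgeR). KCS4 (Glyma.17G251000.1) had 2.32 and 1.91 RPKM in SC100, against 0.227 and 0.117 RPKM in C100, and the 2 GPAT8 models had 2.08 to 2.23 RPKM in SC100, against 0.0919 to 0.305 RPKM in C100. The call of GPAT8 (Glyma.07G069700.1) at this stage was lost in 6 of 11 alternatives. The groups did not overlap in any of these genes. The 1 member lower in SC100 was CYP86A8 (Glyma.03G008100.1), with 0.250 and 0.255 RPKM in SC100 against 0.963 and 0.569 RPKM in C100 (log2 fold change -2.46 ± 0.60 SE, adjusted p = 0.0142 by edgeR). It did not pass in 5 of its 11 alternatives, which included leaving out SC100 CT replicate 1 (adjusted p = 0.106) and either C100 CT replicate (adjusted p = 0.164 and 0.0563).

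Of the 14 members higher in SC25 and the 10 higher in SC100, 7 were on both lists, namely CYP86A7, CYP86A8 (Glyma.05G208900.1), CYP86B1 (Glyma.09G282700.1), CYP86A1 (Glyma.14G192500.1), KCS10 (Glyma.06G058500.1) and both GPAT8 models. The interaction of stage and tissue gave 0 higher and 0 lower members by edgeR, against 0.0305% and 0.109% of all models, with 2 higher and 5 lower at an unadjusted p under 0.05 and 0 by DESeq2. It gave 1 higher and 2 lower without SC25 CT replicate 2 (0.815% and 3.04% of all models), 2 lower without SC25 CT replicate 1 (0.643%) and 1 of each without SC100 CT replicate 2 (0.505% and 4.71%).

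**Figure D3:**
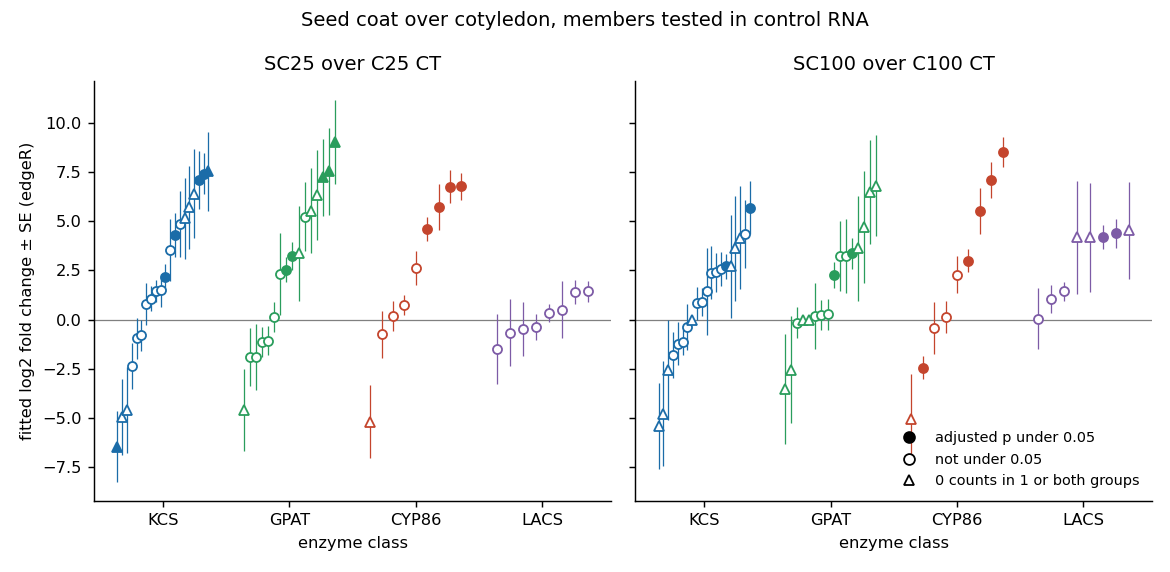
Fitted log2 fold change ± SE of each of the 53 members tested, by enzyme class, for SC25 over C25 (left) and SC100 over C100 (right). Filled symbols have an adjusted p under 0.05, and triangles mark members with 0 counts in 1 or both groups, whose fitted value depends on the prior count. The CYP86 class held 4 filled symbols above 0 on each side, and the LACS class held 0 on the left and 2 on the right.

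Within the seed coat, SC100 was compared with SC25. By edgeR's test 0 members were higher and 1 was lower, against 0.0378% and 0.0581% of all models, with 1 higher and 8 lower at an unadjusted p under 0.05, and DESeq2 gave 0 and 1. The lower member was again CYP86A8 (Glyma.03G008100.1), with 0.250 and 0.255 RPKM in SC100 against 2.55 and 2.16 RPKM in SC25 (log2 fold change -3.25 ± 0.59 SE, adjusted p = 0.0486). It did not pass without SC100 CT replicate 1 (adjusted p = 0.365) or without SC25 CT replicate 1 (adjusted p = 0.126), and the number of members called was 3 lower without SC100 CT replicate 2 (9.99% of all models), 2 higher and 4 lower without SC25 CT replicate 2 (4.69% and 12.3%) and 0 without either replicate 1. The other CYP86A8 (Glyma.05G208900.1) had 8.71 and 11.9 RPKM in SC100 and 10.4 and 6.0 RPKM in SC25. CYP86A7 had 44.8 and 37.5 RPKM in SC100, above the 19.4 and 15.1 RPKM in SC25, with an adjusted p of 0.320 by edgeR.

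Along the cotyledon stages the summed RPKM of the members was lower at C100 and C300 than at C25, but no single member passed. CYP86A8 (Glyma.03G008100.1) had 1.39 and 1.78 RPKM in C25, 0.963 and 0.569 RPKM in C100 and 0.621 and 0.570 RPKM in C300. LACS2 (Glyma.12G047400.1) had 0.692 and 0.889 RPKM in C25, 0.119 and 0.0960 RPKM in C100 and 0.0912 and 0.184 RPKM in C300. Its C25 libraries lay above all later cotyledon libraries. The edgeR test gave 0 higher and 0 lower members for C100 against C25, beside 0.401% and 0.0915% of all models, with 1 higher and 3 lower at an unadjusted p under 0.05 and 0 by DESeq2. A fit of the 4 libraries compared called 3 higher and 6 lower, where 11.2% and 8.88% of all models were called, and the fit without TMM called 1 lower, against 0.959% of all models.

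For C300 against C100 the test also gave 0 higher and 0 lower, beside 0.0581% and 0.00581% of all models, with 2 higher and 1 lower at an unadjusted p under 0.05 and 0 by DESeq2. The ratio of the summed RPKM of the members was 0.381 for C100 over C25, and 0.783 with library totals that lack the 1% most abundant models. The storage protein sum was 17026 and 13052 RPKM in C100, against 4252 and 5235 RPKM in C25, and its part in the RPKM of the members was otherwise not tested. The median log2 fold change of C100 over C25 was -0.55 for the members and -0.14 for all models, and -1.52 and -1.12 without TMM scaling. By class the medians were -0.27 for GPAT, -0.03 for KCS, -0.14 for CYP86 and -1.83 for LACS, and for C300 over C100 they were 0.19, -0.05, -0.25 and 0.53 in the same order, with 0 members of any class called.

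Some members lie close together in the numbering of the gene models. CYP86A8 (Glyma.03G008100.1) and GPAT8 (Glyma.03G008300.1) are 2 model numbers apart on chromosome 3, and CYP86A8 (Glyma.07G069500.1) and GPAT8 (Glyma.07G069700.1) are 2 apart on chromosome 7. On both chromosomes the GPAT8 model was called higher in the seed coat at both stages and the CYP86A8 model at neither. Glyma.07G069500.1 had 0.808 and 1.91 RPKM in SC25 and 1.41 and 0.0799 RPKM in SC100, against 0.949 and 1.37 RPKM in C25 and 0.460 and 0.279 RPKM in C100. GPAT3 (Glyma.14G167300.1) and GPAT2 (Glyma.14G167400.1) are neighbours on chromosome 14, and the GPAT2 model had 1.01 and 0.296 RPKM in SC25, against 0.0282 and 0 RPKM in C25, and did not pass (adjusted p = 0.0703 by edgeR). Reads that fit several models were counted at each of them, so the levels of close paralogs, such as the 2 KCS11, the 2 LACS2 and the 2 GPAT8 models, are not independent.

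The tissue comparison was repeated in ribosome footprints with SC25 against C25. Of 40 members tested, 2 were higher and 1 was lower, against 1.07% and 3.3% of all models. KCS11 (Glyma.20G210900.1) had 0.675 and 3.11 RPKM in SC25 FP, against 0 and 0.0228 RPKM in C25 FP (ratio of summed counts 142, interval 24.5 to 5675, adjusted p = 0.0233 by edgeR). GPAT6 (Glyma.07G146800.1) had 0.902 and 0.214 RPKM in SC25 FP and no count in C25 FP, at least 13.8-fold higher (adjusted p = 0.0477 by edgeR). KCS4 (Glyma.06G012500.1) was lower, with 0.0576 and 0 RPKM in SC25 FP against 0.774 and 0.218 RPKM in C25 FP (adjusted p = 0.0265 by edgeR). Of these 3, GPAT6 and KCS11 were also higher in SC25 in CT, and KCS4 (Glyma.06G012500.1) did not pass in CT, with 0.853 and 0.115 RPKM in SC25 against 1.37 and 1.12 RPKM in C25.

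These calls changed with single FP libraries. CYP86A7 had 11.4 and 4.37 RPKM in SC25 FP, against 0 RPKM in C25 FP replicate 1 and 1.24 RPKM in replicate 2, and CYP86A1 (Glyma.14G192500.1) had 3.44 and 0.652 RPKM in SC25 FP, against 0 and 0.434 RPKM in C25 FP. Both have values in the second C25 replicate alone. Without that library 8 members were higher and 1 was lower, against 4.47% and 3.96% of all models, with CYP86A7, CYP86A8 (Glyma.05G208900.1), CYP86A1 and CYP86B1 (Glyma.09G282700.1) among the higher ones. With all libraries, DESeq2 called 2 members higher and 0 lower, beside 1.01% and 2% of all models. The footprint calls of KCS11, GPAT6 and KCS4 named above were all lost without SC25 FP replicate 2, and also without C25 FP replicate 1. Fewer models of all kinds passed in these fits. The median log2 fold change of the members was 0.98 with all libraries, 1.41 without SC25 FP replicate 2 and 0.65 without C25 FP replicate 1. Over all models these medians were 0.03, 0.03 and 0.01. C25 FP replicate 2 correlated across 9409 models with r of 0.75 with SC25 FP replicate 1, against 0.49 for C25 FP replicate 1. The sum of 45 seed coat list genes was 25.3 RPKM in C25 FP replicate 2 and 21.2 RPKM in replicate 1. Ep, a gene of this list, held 4.71 RPKM in replicate 2 and 0 in replicate 1, so the other list genes were not higher in replicate 2. The sum of 17 secondary wall genes was 0.411 RPKM in replicate 2 and 0.0221 RPKM in replicate 1. The part of other tissue in the levels of the members was not tested.

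Translational efficiency (TE), the ratio of the FP to the CT level, from means over replicates that were raised to 0.1 RPKM where lower, was described for members with a mean CT level of 1 RPKM or more. The median TE was 0.543 over 24 members in SC25, 0.474 over 18 in SC100 and 0.343 over 12 in C25. All primary models at the same CT level had medians of 0.367 in SC25, 0.370 in SC100 and 0.208 in C25. Both C25 medians include FP replicate 2. The lowest TE in SC25 was that of GPAT3 (Glyma.14G167300.1) at 0.0838, with 0.0657 and 0.149 in the replicate pairs. The highest was that of CYP86A1 (Glyma.14G192500.1) at 1.12, with 1.90 in the first pair and 0.356 in the second. GPAT9 (Glyma.05G131100.1) had 6.83 and 0.174 in the SC25 pairs. The median TE in SC25 was 0.868 in the first pair and 0.282 in the second.

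**Figure D4:**
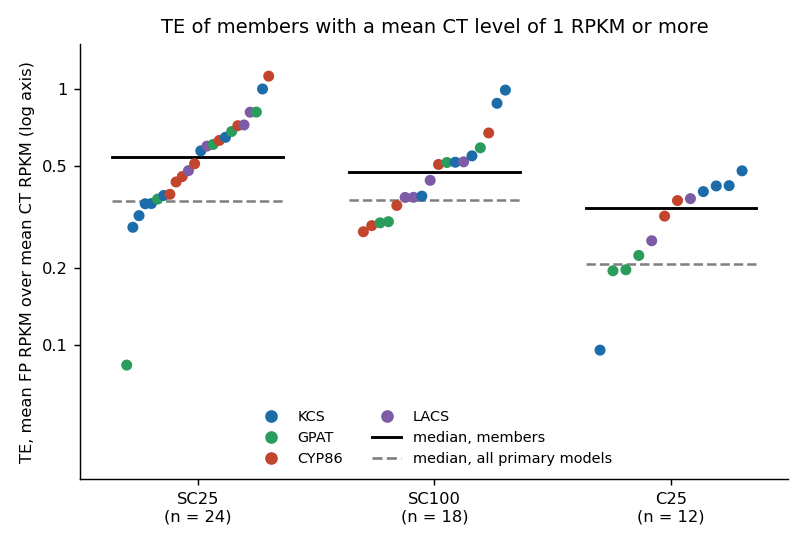
TE (log axis) of the members with a mean CT level of 1 RPKM or more in SC25, SC100 and C25, coloured by enzyme class, with the median of the members (solid line) and of all primary models at the same CT level (dashed line). The medians of the members were 0.543, 0.474 and 0.343, and 2 members in SC25 lay above 1.

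FP was compared with CT within each tissue and stage. In SC25, 0 of 43 members were higher and 0 lower by edgeR, beside 0% and 0.0364% of all models, with 0 higher and 1 lower at an unadjusted p under 0.05 and 0 by DESeq2. In SC100, 0 of 34 members were higher and 0 lower, beside 0% and 0% of all models, with 4 higher and 0 lower at an unadjusted p under 0.05 and 0 by DESeq2. With the replicate pairs as a block, 1 member was higher in FP of SC100, KCS11 (Glyma.20G210900.1), with 1.55 and 0.607 RPKM in FP against 0.0414 and 1.09 RPKM in CT (log2 fold change 2.83 ± 0.68 SE, adjusted p = 0.00595 by edgeR), beside 1.07% of all models. Without SC25 CT replicate 2, 1 member was higher and 1 lower in FP of SC25, beside 2.06% and 2.97% of all models. Without SC100 CT replicate 2, 5 were higher and 1 lower in FP of SC100, beside 17.4% and 7.47% of all models.

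In C25, 8 of 35 members were higher in FP and 0 were lower after TMM scaling, against 6.41% and 4.91% of all models. The direction rests on the scaling, because without TMM 2 were higher and 19 lower, beside 0.712% and 87.9% of all models, while the median log2 fold change of all models moved to -2.50 from the -0.15 with TMM. The 8 fall into different patterns in RPKM. LACS7 (Glyma.20G143900.1) had 0.755 and 0.575 RPKM in FP against 1.62 and 1.94 RPKM in CT, so its RPKM was lower in FP than in CT in both replicates, as were those of KCS4 (Glyma.17G251000.1) and KCS1 (Glyma.03G260300.1). The other 5 had nearly all of their FP signal in replicate 2, 85.5 to 100% of the summed FP RPKM. CYP86A8 (Glyma.05G208900.1) had 0.0210 and 0.426 RPKM in FP against 0.0179 and 0.170 RPKM in CT, and KCS10 (Glyma.06G058500.1) had 0.0616 and 0.364 RPKM in FP against 0.0786 and 0.0356 RPKM in CT. Without C25 FP replicate 2, 6 members were higher (9.64% of all models) and 1 was lower (8.07%), and 2 of the 6 were among the 8. Without C25 FP replicate 1, 14 were higher (7.63% of all models), without C25 CT replicate 2 it was 5 (2.13%), and DESeq2 called 2 (3.42%).

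**Figure D5:**
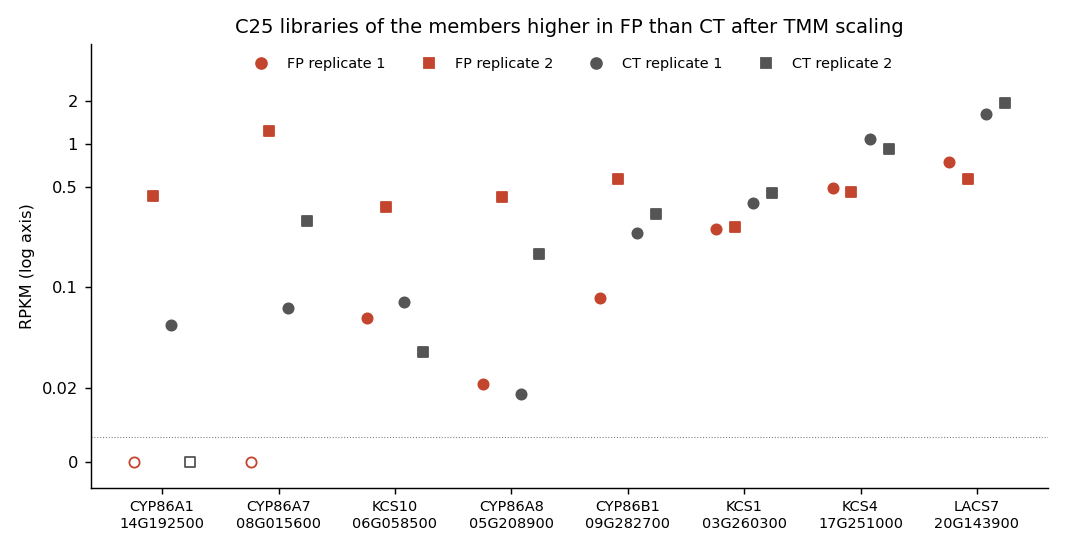
RPKM (log axis) in the 2 FP and 2 CT libraries of C25 for the 8 members that were higher in FP after TMM scaling, with 0 counts drawn as open symbols below the dotted line. In 5 of them FP replicate 2 stood above FP replicate 1, which was at 0 for CYP86A1 and CYP86A7, while LACS7, KCS4 and KCS1 had close FP replicates that lay below CT.

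The difference in TE between the tissues was tested as an interaction over 51 members, and 0 were higher and 0 lower in SC25, beside 0% and 0% of all models, with 0 higher and 7 lower at an unadjusted p under 0.05 and 0 by DESeq2. With the replicate pairs as a block, 3 members were lower in SC25, where 0.975% of all models were lower, namely CYP86A7 (log2 difference -4.59 ± 0.83 SE, adjusted p = 1.13e-05 by edgeR), CYP86A8 (Glyma.05G208900.1, -4.29 ± 0.84 SE, adjusted p = 8.40e-05) and CYP86A1 (Glyma.14G192500.1, -4.18 ± 1.20 SE, adjusted p = 0.0491). All 3 are among the members whose C25 FP counts stood in replicate 2, and the blocked fit was not run without that library. In the fit without a block, the median log2 difference of the members was -0.91 with all libraries and -0.03 without C25 FP replicate 2. Over all models these medians were -0.13 and 0.16. When 1 library was left out of the fit without a block, 3 members were lower without SC25 CT replicate 2 (2.26% of all models), 2 without C25 FP replicate 1 (0.759%) and 2 without C25 CT replicate 2 (0.447%).

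Other genes of wax, cutin, suberin and elongation that the search words did not take, 117 models, were read beside the members from a list of their Arabidopsis descriptions. Of the 53 of them tested, 5 were higher and 1 lower in SC25 than in C25 CT, beside the 6.5% and 5.05% of all models, and 3 were higher and 0 lower in SC100 than in C100 CT, beside 3.84% and 4.78%. Their median log2 fold change was 0.75 at the first stage and -0.79 at the second, against -0.18 and -0.32 over all models. The genes named next are among those called. CYP96A1 (Glyma.05G003200.1) had 1.49 and 0.811 RPKM in SC25 and 1.13 and 1.45 RPKM in SC100, against 0 RPKM in the 6 cotyledon CT libraries. CYP77A5 (Glyma.08G094600.1) had 3.09 and 3.27 RPKM in SC25, against 0.446 and 0.454 RPKM in C25, and 2.01 and 1.32 RPKM in SC100, against 0.0246 and 0 RPKM in C100. The description of its Arabidopsis match calls that match a pseudogene. A beta-ketoacyl reductase (Glyma.18G011600.1), the enzyme of the step after KCS, had 6.06 and 2.20 RPKM in SC25, against 0.949 and 0.783 RPKM in C25. WBC11 (Glyma.16G209400.1), named for an Arabidopsis transporter that carries wax and cutin lipids out of the epidermis, had 1.76 and 1.28 RPKM in SC100, against 0.112 and 0.0453 RPKM in C100. A jojoba-type acyl-CoA reductase (Glyma.11G185100.1) was the 1 model lower in SC25, with 0 counts in both libraries against 0.524 and 0.633 RPKM in C25. The families of these genes went in different directions. In SC25 against C25 the median log2 fold change was 7.34 over the 2 CYP96 models tested. It was 0.90 over 3 beta-ketoacyl reductases, 3.02 over 4 jojoba-type reductases and -2.50 over 6 CYP77 models, of which 2 were called higher. In SC100 against C100 it was -1.25 over 8 WBC11 models.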

How the data were processed

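Libraries of soybean seed coats and cotyledons, from footprints (FP) and from total RNA (CT), were grouped by tissue, seed weight and replicate as their labels give them. The authors trimmed the reads, aligned them to the Wm82.a2 cDNA models with Bowtie 1 without mismatches, allowing up to 25 alignments per read, and deposited raw counts of alignments for 88515 models, with the cDNA length and Arabidopsis descriptions beside them. The deposited counts were tested with the quasi-likelihood test of edgeR 4.0.16 (R 4.3.3, TMM scaling, at least 10 counts summed over a fit, Benjamini-Hochberg adjustment over all models, threshold 0.05), and DESeq2 1.42.0 was an alternative. All CT groups shared 1 fit. RPKM, TE and exact intervals were computed with Python 3.11.15, pandas 2.3.3, numpy 2.4.6 and scipy 1.17.1, and figures with matplotlib 3.10.9. Members, lists and tests were chosen with earlier results of these data known. The genes named are, by rule, the 3 most abundant members of each class in CT and, among called members whose libraries do not overlap, the largest rises and falls (10 each for SC25 against C25 in CT, 4 each for other comparisons of tissue or stage, 3 each for FP against CT and, overlap aside, for interactions). Other members are named for comparison after their values were seen.

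FP and CT libraries of a number come from 1 powdered sample of tissue in the methods of the study, and the correlation of their deviations from the group means was 0.256 in SC25, 0.121 in SC100 and 0.0169 in C25, so blocked values are given for FP against CT. Neither the labels nor the methods of the study state whether replicate numbers pair tissues or stages. Replicates are labelled as biological, each from pooled seeds. The fits were run on simulated counts with 1 fixed spread, in which 200 models changed by 4 on the log2 scale. The changed models had more counts than most members, so this run does not show how the fits perform for them. Alternatives were DESeq2, no TMM, other count filters, primary models only, fits of the compared libraries alone, a replicate block and leaving out each library. A reference gene table paired 0 of the model names with its entries, so no sequence or coordinate is given.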

Additional observations from a re-analysis of the deposited data

How the results depend on the processing

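The direction of each of the 20 named differences was kept under the alternatives run for it, and the call was kept in 169 of 212 instances and lost in 43. These differences were named because they were called and their libraries did not overlap. A reversal of direction was therefore unlikely from the start, and the kept direction is no separate evidence. The number of members called moved by more than 1.5 times in these cases, and the cause was not tested. The shares of all models called higher and lower stand in brackets. Without TMM the number was 0 for SC100 against SC25 (0.0232% and 0.0508%) and 1 for C100 against C25 (0.116% and 0.959%). It was 15 for SC25 against C25 in FP (11.6% and 1.32%) and 21 for FP against CT in C25 (0.712% and 87.9%). Without the count filter it was 3 for SC100 against SC25 (0.268% and 1.49%) and 1 for the interaction of stage and tissue (0.132% and 0.769%). It was 8 for SC25 against C25 in FP (3.64% and 3.26%), 13 for FP against CT in C25 (4.59% and 4.64%) and 3 for the TE interaction (0.0181% and 0.735%). For SC100 against SC25 it was 0 with at least 10 counts in every library of a group (0.0263% and 0.0101%) and 0 with primary models only (0.023% and 0.0383%). The fit of the 4 libraries compared gave 0 for SC100 against SC25 (0.0313% and 0.0903%). It gave 9 for C100 against C25 (11.2% and 8.88%) and 1 for C300 against C100 (2.56% and 2.17%). For FP against CT in C25, DESeq2 called 2 (3.42% and 1.62%) and the fit of primary models only called 3 (5.11% and 4.97%).

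Under a block for the replicate number, calls in CT were 14 for SC25 against C25 (5.78% of all models higher and 4.81% lower) and 10 for SC100 against C100 (3.58% and 4.74%). They were 5 for SC25 against C25 in FP (2.54% and 4.46%), 1 for FP against CT in SC100 (1.07% and 0.34%) and 11 in C25 (8.13% and 6.63%). The TE interaction had 3 (0.0415% and 0.975%), and the block moved no other number of calls. Whether tissues or stages of the same number share more than the number is not stated in the labels or methods.

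When each library was left out in turn, the calls ranged from 5 to 26 for SC25 against C25 and from 4 to 12 for SC100 against C100 in CT, from 0 to 6 for SC100 against SC25, from 0 to 3 for the interaction, from 0 to 9 for SC25 against C25 in FP, from 0 to 2 for FP against CT in SC25, from 0 to 6 in SC100, from 5 to 14 in C25 and from 0 to 3 for the TE interaction. The share of all models called also moved with the library left out. A group left with 1 library was assumed to vary like the others. With totals that lack the 1% most abundant models, the ratio of summed RPKM was 5.80 for SC100 over C100 (9.54 with full totals), 0.783 for C100 over C25 and 0.971 for C300 over C100. With 2 replicates and most members near the detection floor, differences of low members could not be resolved at this depth.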
